A study of Mus musculus with 2 samples.

Results

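The cells described here are B cells of the mouse adrenal gland in which UMIs (unique molecular identifiers, 1 per captured transcript) of Mzb1, Zcwpw1 and Bhlhe41 outnumbered those of Ighd and Fcer2a. Barcodes with at least 200 detected genes and at most 15% mitochondrial UMIs were kept, and a B cell gate asked for 3 or more UMIs of Cd79a and Cd79b, at most 1 UMI of Cd3d, Cd3e and Cd3g, and at most 2 UMIs of C1qa, C1qb and C1qc. Of 6319 barcodes kept, 776 fell in the gate. Of these, 232 had at least 1 UMI of Mzb1, Zcwpw1 and Bhlhe41 together and more of them than of Ighd and Fcer2a together, and they are called Mzb1-led cells. The 453 cells of the gate in which Ighd and Fcer2a led are called Ighd-led cells and served as the comparison. The other cells of the gate were 39 with a tie above 0 and 52 with a UMI of none of the 5 genes.

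The adrenal glands came from C57Bl/6 mice aged 7 weeks and were digested before CD45+ cells were sorted, with 1 library from females, 1 from males and no treatment named. The number of animals pooled in each library is not given in the sources used here. With 1 library per sex, no test between the sexes was possible, and every interval below is a 95% interval that covers counting error only. The female library held 3963 barcodes and 16218309 UMIs and the male library 2685 barcodes and 9512670 UMIs. The libraries shared 2 barcodes, and neither was an Mzb1-led cell.

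Most mature B cells are follicular cells, which carry IgM and IgD, circulate through lymphoid organs and rely on T cell help. Innate-like B cells, chiefly B-1 cells of the body cavities and marginal zone B cells of the spleen, carry much IgM and little IgD, respond fast to microbial and self antigens, and are a source of natural antibody. Mzb1 is a chaperone of the endoplasmic reticulum that assists antibody assembly in B-1, marginal zone and plasma cells, and Bhlhe41 is a transcriptional repressor needed by B-1a cells. Zcwpw1 reads histone methylation and is best known from meiosis. Ighd encodes the heavy chain constant region of IgD, and Fcer2a encodes CD23, a low-affinity IgE receptor of follicular cells.

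In the female library 169 of 516 gate cells were Mzb1-led, 32.8% (28.7 to 37.0%), and in the male library 63 of 260, 24.2% (19.2 to 29.9%). The female share was higher by 8.52 percentage points (1.73 to 14.9). Among all kept barcodes, Mzb1-led cells were 4.43% (3.80 to 5.13%) in the female and 2.52% (1.94 to 3.21%) in the male library. The share is one of cells within the CD45+ sort, so it carries no number per gland. The UMI count of a cell bears on the rule: Mzb1-led cells had a median of 4990 UMIs in the female and 3552 in the male library, Ighd-led cells 2037 and 1652. The part of depth in the choice of cells was not separated from that of cell state, and the shares were 25.9% and 18.3% when every cell was first thinned to 1000 UMIs.

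The cells were chosen by the UMI counts of the rule genes, whose values are given as a description. The sum of Mzb1, Zcwpw1 and Bhlhe41 ran from 1 to 59 UMIs per cell in the female library, with a median of 5, and from 1 to 101 with a median of 4 in the male library. Mzb1 UMIs occurred in 159 female and 62 male Mzb1-led cells, those of Bhlhe41 in 89 and 21, and Zcwpw1 in 47 and 13. Outside B cells, a Mzb1 UMI occurred in 4 of 864 female T cells, and a Zcwpw1 UMI in 41 of them. The first share is close to 0, while the second shows that a single Zcwpw1 UMI also occurs outside B cells. A Bhlhe41 UMI was found in 83 of 816 female macrophages. Ighd UMIs were still present in 60 female and 22 male Mzb1-led cells, and Fcer2a UMIs in 5 and 3.

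Cells at the edge of the rule are given once. Just inside it, 33 female and 17 male cells had an excess of 1 UMI, and just outside it 20 and 19 cells had a tie. S100a6, a calcium-binding protein not used by the rule, stood at 2266 CPM (counts per 1000000 UMIs of the cell group) in the female cells just inside and at 603 CPM in the tied cells. In the male library these levels were 975 and 665 CPM. Other genes did not follow one pattern: Crip1, a LIM-domain protein, stood at 3389 CPM just inside and 4900 CPM in the tied cells of the female library, and Plac8 at 1888 and 1466 CPM.

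The gate chose the Mzb1-led cells as B cells through Cd79a and Cd79b, so lineage markers are given as a description. All 14 genes of a B cell lineage list were measured, Cd79a and Cd79b of the gate among them. Ms4a1, which encodes CD20, stood at 1330 CPM in female and 1076 CPM in male Mzb1-led cells, against 1025 and 1113 CPM in Ighd-led cells. Its groups differed by a ratio of 1.30 (1.19 to 1.42) in the female library and not beyond counting error in the male library, 0.967 (0.831 to 1.12). Ebf1, the transcription factor that specifies the B lineage, was lower, and the signalling regulator Cd72 was lower too. The other 12 lineage genes were called in neither direction. The label of innate-like cells was not tested by these genes, and Cd5, the surface receptor that separates B-1a from B-1b cells, was sparse: 8 UMIs in 169 female and 4 in 63 male Mzb1-led cells. The cells are called by the leading gene of the rule.

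Expression was compared as the ratio of summed CPM, Mzb1-led over Ighd-led cells, within each library. Among 3555 genes with at least 20 UMIs in the 2 groups of each library, 49 were higher, with a ratio of 2 or more and an interval above 1 in both libraries, and 121 were lower, with a ratio of 0.5 or less and an interval below 1 in both. These counts are 1.38% and 3.40% of the genes compared. With cells that held plasma cell or plasmacytoid dendritic cell genes left out of both groups, 33 of the 49 and 72 of the 121 kept their call. With immunoglobulin genes left out of the group totals, all 49 higher genes but only 92 of the 121 lower genes kept it. The median log2 ratio of all 3555 genes was -0.22 in the female and -0.21 in the male library, and list medians below are to be read against it. The minimum of 20 UMIs was summed over both groups, so a gene high in 1 group could pass it through that group alone. List counts and medians are therefore descriptions of the genes that passed and no support for a list. With every cell thinned to 1000 UMIs, 932 genes could be compared, and 5 were higher and 6 lower. Of the 10 higher named genes described below, only S100a6, Plac8 and Vim kept their call at that depth. Of the 10 lower named genes, only Ms4a4c did. With the 5 cells that held most UMIs of each gene left out, 19 were higher, and Lmna, Sox5, Igkc, Zbtb32, Plscr1, Fosb and Zfp608 of the named genes lost their call.

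**Figure D1:**
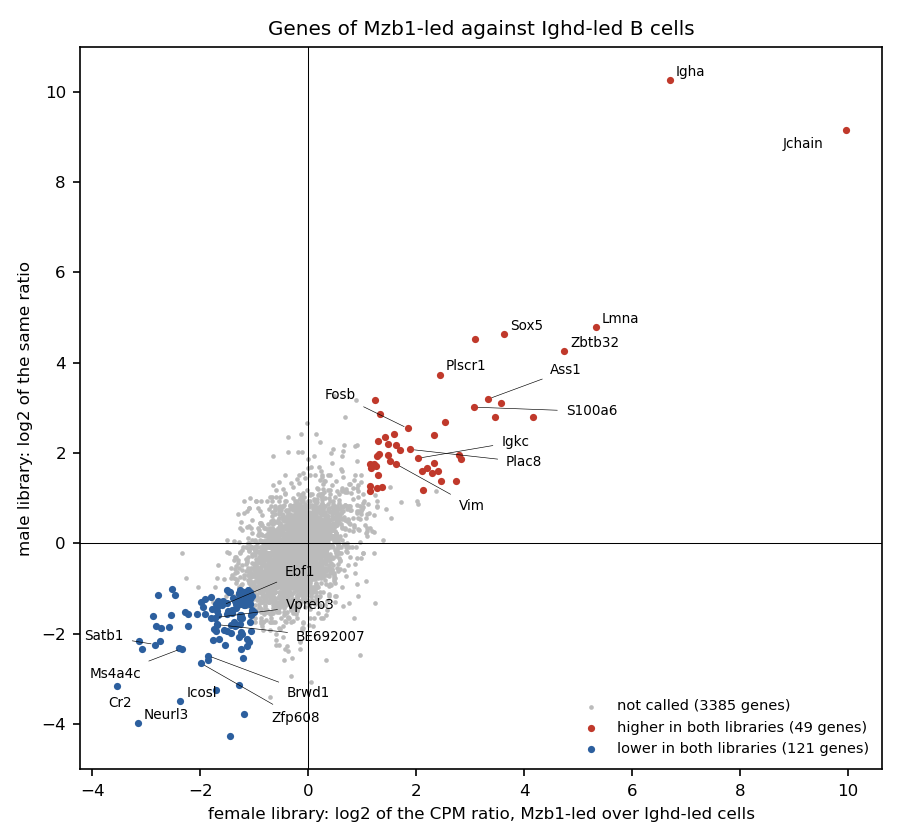
Log2 of the CPM ratio of Mzb1-led over Ighd-led cells in the female library (x axis) and in the male library (y axis), 1 point per gene compared. The 49 higher genes lie at the upper right and the 121 lower genes at the lower left; genes with no UMI in a group are drawn at the bound given by 3 UMIs, and the 20 named genes plus Jchain and Igha are labelled.

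Among genes found in at least 10 Mzb1-led cells of each library, the one whose lower bound was farthest above 1 was S100a6 (ENSMUSG00000001025, chr3:90612882-90624181 on the plus strand, GRCm38). Its level was 2959 CPM in female and 2872 CPM in male Mzb1-led cells, against 352 and 355 CPM in Ighd-led cells. The ratios were 8.41 (7.42 to 9.57) and 8.09 (6.63 to 9.95), and the levels of both libraries lay close together in each group. At equal depth of 1000 UMIs, 110 of 167 female Mzb1-led cells (65.9%) and 33 of 294 Ighd-led cells (11.2%) held an S100a6 UMI. The male shares were 31 of 61 (50.8%) and 20 of 152 (13.2%). S100a6 is not restricted to B cells: 342 of 862 female T cells held a UMI at that depth. In the Ighd-led group, 5 cells held 49.8% of the female and 63.6% of the male S100a6 UMIs.

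Vim, the intermediate filament protein vimentin, stood at 977 and 972 CPM, against 316 and 287 CPM. Its ratios were 3.09 (2.68 to 3.57) and 3.38 (2.67 to 4.33). Both genes belong to a list of annexins, S100 proteins and cytoskeletal genes, of which 15 were compared. Of these 15, 7 were higher and none lower: Vim, S100a4, S100a6, Anxa2, Crip1, Lgals1 and Ahnak. S100a4 (71 UMIs against 14) and Anxa2 (35 against 8) passed the minimum in the male library through the Mzb1-led cells. The list median was 1.09 and 1.07 on the log2 scale, and 3 genes of the list were called at 1000 UMIs per cell. Crip1 reached 5868 CPM in female and 3746 CPM in male Mzb1-led cells against 1339 and 1649 CPM. Ahnak, a giant scaffold protein at the membrane, stood at 533 and 326 CPM against 116 and 103 CPM. Anxa2, a membrane-binding annexin, gave ratios of 3.26 (2.32 to 4.68) and 4.17 (1.90 to 10.4). Among adhesion genes, 2 of 10 were higher, the tetraspanin Cd9 and the integrin beta chain Itgb1, and the median of that list was 0.10 and 0.12. In the male library both passed the minimum through the Mzb1-led cells, with 24 UMIs against 5 for Cd9 and 39 against 11 for Itgb1.

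Several genes tied to B-1 cells were higher as well. Of 16 genes listed, 7 had enough UMIs, and 5 of these were higher and none was lower. Zbtb32, Plscr1, Fcrl5 and Cd9 passed the minimum in the male library only through the Mzb1-led cells, in which they were high. In the female library Zbtb32 (69 UMIs against 2), Plscr1 (70 against 10) and Fcrl5 (82 against 11) also did so. With the 5 cells of most UMIs of each gene left out 1 gene of the list was higher, and at 1000 UMIs per cell 0. Zbtb32, a transcriptional repressor of memory and B-1 cells (chr7:30589681-30598909, minus strand), gave 69 UMIs in 41 female and 20 UMIs in 12 male Mzb1-led cells. Only 2 and 1 UMIs fell in the Ighd-led cells, so its ratios of 26.7 (7.12 to 225) and 19.1 (3.05 to 790) have wide intervals. Plscr1, a phospholipid scramblase, stood at 70.8 and 86.1 CPM against 13.1 and 6.45 CPM. Fcrl5, an Fc receptor-like inhibitor of innate-like B cells, stood at 83.0 CPM in both libraries against 14.4 and 12.9 CPM. Cd9 stood at 79.9 and 73.8 CPM against 28.8 and 16.1 CPM, and Ahnak belongs to this list too. Zbtb20 had ratios of 2.05 (1.65 to 2.56) and 1.91 (1.33 to 2.77), just short of the fold asked for in the male library. Siglecg, an inhibitory lectin of the antigen receptor, had ratios of 1.14 and 1.09 with intervals that spanned 1.

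The 9 other genes of the B-1 list were too sparse to be compared. Ctla4, an inhibitory receptor, gave 24 UMIs in 19 female and 6 UMIs in 3 male Mzb1-led cells and none in 453 Ighd-led cells. Against a floor of 3 UMIs per group, its level was raised at least 6.19-fold (female) and at least 1.91-fold (male). Itgam, the integrin CD11b of body-cavity B-1 cells, gave 30 and 6 UMIs against 4 and 1. Arid3a gave 51 and 12 against 15 and 5. Il5ra, the interleukin 5 receptor that B-1 cells use, gave 45 UMIs against 11 in the female library and 6 against 7 in the male library. Spn, which encodes CD43, gave 26 and 8 UMIs against 16 and 3, with intervals that spanned 1.

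Further named genes were higher without belonging to either list. Plac8, a small cysteine-rich protein, is abundant in marginal zone B cells (chr5:100553725-100572245, minus strand) and gave UMIs in 157 female and 57 male Mzb1-led cells. Its levels were 2668 and 2485 CPM against 719 and 587 CPM, with ratios of 3.71 (3.38 to 4.07) and 4.23 (3.60 to 5.00). The other compared genes of the marginal zone list did not go with it: the complement receptor Cr2 was lower, and Notch2, Dtx1 and Tm6sf1 were not called. Sox5, a SOX family transcription factor, stood at 80.9 and 80.0 CPM against 6.54 and 3.23 CPM, and same-strand non-coding genes lie within its locus. A Sox5 UMI was found in 3 of 864 female T cells and 40 of 169 Mzb1-led cells, at median depths of 4165.5 and 4990 UMIs. Ass1, which makes argininosuccinate in arginine synthesis, stood at 145 and 148 CPM against 14.4 and 16.1 CPM. Lmna, the nuclear lamin A/C, gave 52 and 29 UMIs against 1 UMI in each Ighd-led group, with ratios of 40.2 (6.91 to 1619) and 27.6 (4.58 to 1129). Like Lmna, Sox5 (80 and 26 UMIs against 5 and 1) and Ass1 (143 and 48 against 11 and 5) passed the minimum only through the Mzb1-led cells in both libraries. The AP-1 subunits Fosb and Jun were the 2 higher genes of 11 compared immediate early genes, and the phosphatase Dusp2 was the 1 lower gene. In the male library Fosb gave 49 UMIs against 8, Jun 25 against 10 and Dusp2 15 against 29, so each passed the minimum through the group in which it was high. Fosb stood at 151 CPM in both libraries against 41.8 and 25.8 CPM.

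**Figure D2:**
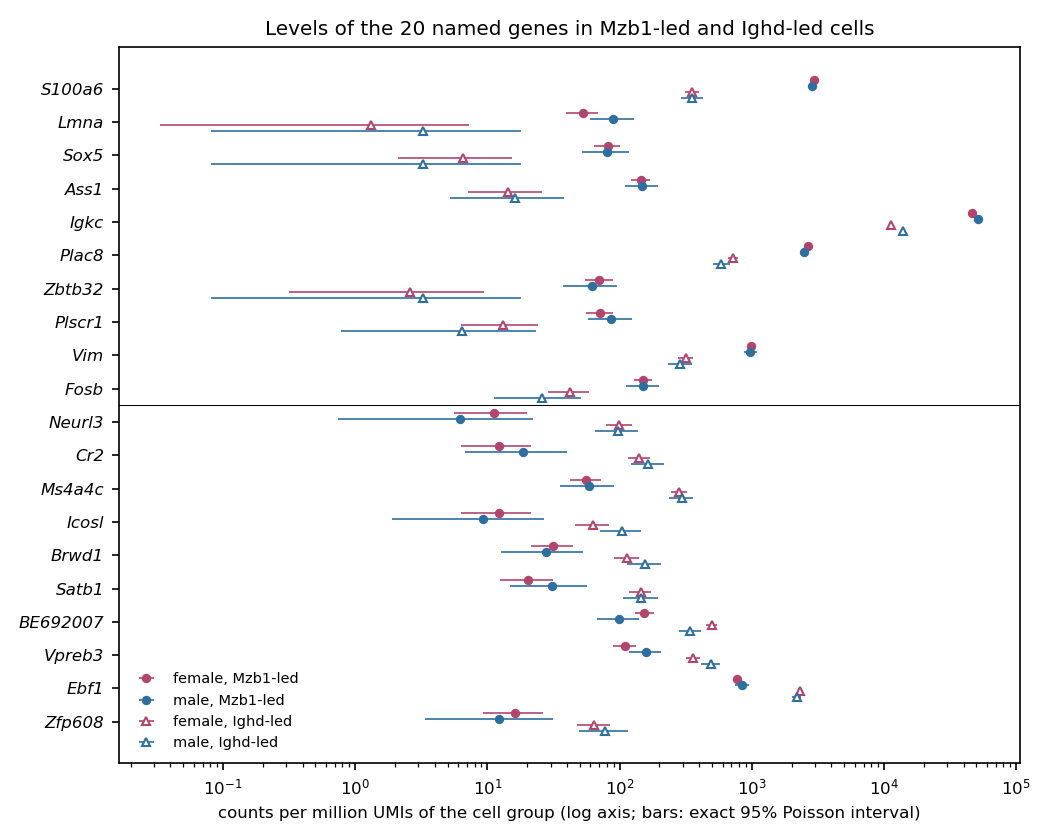
CPM (log axis) of the 10 higher genes (top) and 10 lower genes (bottom) named by rank of their bounds, in Mzb1-led cells (filled circles) and Ighd-led cells (open triangles) of the female and male libraries, with exact Poisson 95% intervals. For each gene both Mzb1-led levels lie on the same side of both Ighd-led levels, which within each library follows from the ranking that chose the genes.

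Most genes of the follicular B cell list were lower. All 12 listed genes were compared, 8 were lower and none higher, and the median was -1.52 in the female and -1.25 in the male library. At 1000 UMIs per cell 0 of these genes were called. In the male library Neurl3 (2 UMIs against 30), Icosl (3 against 32) and Satb1 (10 against 45) passed the minimum through the Ighd-led cells. Neurl3 (11 against 76) and Icosl (12 against 48) also did so in the female library. Neurl3, a ubiquitin ligase of the neuralized family (chr1:36264597-36274679, minus strand), stood at 11.1 and 6.15 CPM against 99.4 and 96.8 CPM. Satb1, a chromatin organizer, stood at 20.2 and 30.8 CPM against 144 and 145 CPM, and same-strand non-coding genes overlap it. Icosl, the ligand by which B cells engage ICOS on T cells, stood at 12.1 and 9.23 CPM against 62.8 and 103 CPM. Vpreb3, a protein kept in the secretory pathway of B cells, stood at 109 and 157 CPM against 361 and 491 CPM, with ratios of 0.303 (0.240 to 0.380) and 0.320 (0.228 to 0.442). Cd55, Fchsd2 and Ccr7 were also among the 8. Klf2, S1pr1, Cxcr5 and Fcmr were not called. Klf2, a factor of B cell trafficking, stood at 771 and 843 CPM against 876 and 887 CPM.

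Several receptors for migration were lower. Of 14 chemokine and S1P receptor genes 7 had enough UMIs, and 4 of these were lower and none higher. Among these were Ccr7, which guides cells to T cell zones, at 37.4 and 64.6 CPM against 174 and 190 CPM, Cxcr4 at 56.7 and 80.0 CPM against 183 and 226 CPM, and S1pr4 at 47.5 and 46.1 CPM against 98.1 and 103 CPM. Cxcr5, the receptor for B cell follicles, and S1pr1, the receptor for tissue exit, had intervals that spanned 1 in both libraries. Below the UMI minimum, some receptors gave more UMIs in Mzb1-led cells. Ccr1, a receptor for inflammatory chemokines, gave 43 UMIs against 2 in the female and 13 against 1 in the male library, with ratios of 16.6 (4.33 to 142) and 12.4 (1.86 to 526). Ccr9, a gut-homing receptor, gave 15 against 1 and 7 against 1, with ratios of 11.6 (1.79 to 489) and 6.67 (0.857 to 301). Few Mzb1-led cells carried these counts: at most 5 cells held 86.7% of the female and 100% of the male Ccr9 UMIs. For Ccr1 these shares were 48.8% and 76.9%, and for Ccr10 100% in both libraries. Ccr10, a receptor of mucosal plasma cells, gave 3 and 8 UMIs against 0 and 0, while Ccr6 gave 15 against 31 and 4 against 7. Among 18 cytokine and cytokine receptor genes, 9 had enough UMIs, and of these Il21r and the BAFF receptor Tnfrsf13c were lower and none was higher. Csf2rb, the common beta chain of the receptors for interleukin 3, interleukin 5 and GM-CSF, stayed below the minimum with 59 UMIs against 8 and 16 against 2, ratios of 5.71 (2.71 to 13.8) and 7.62 (1.79 to 68.3). The ratio of Tnfrsf13c was 0.468 (0.344 to 0.633) and 0.467 (0.281 to 0.761).

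Cr2, which encodes complement receptors CD21 and CD35 (chr1:195136811-195176716, minus strand), had the lowest female ratio of the named genes. It gave 12 UMIs in 169 female and 6 UMIs in 63 male Mzb1-led cells, against 108 and 51 UMIs in Ighd-led cells. The ratios were 0.0860 (0.0431 to 0.156) and 0.112 (0.0393 to 0.261). Ebf1 stood at 773 and 846 CPM against 2322 and 2188 CPM. Other low genes were Ms4a4c, a tetraspan membrane protein, at 55.6 and 58.4 CPM against 282 and 294 CPM, and Brwd1, a bromodomain reader of histone acetylation, at 31.4 and 27.7 CPM against 114 and 155 CPM. BE692007 stood at 154 and 98.4 CPM against 497 and 342 CPM, and Zfp608, a zinc finger gene, at 16.2 and 12.3 CPM against 64.1 and 77.5 CPM. In the male library Cr2, Ms4a4c (19 UMIs against 91), Brwd1 (9 against 48) and Zfp608 (4 against 24) passed the minimum through the Ighd-led cells. Cr2 and Zfp608 (16 against 49) also did so in the female library.

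Of the 10 MHC class II genes all had ratios below 1 in both libraries, as had 1832 of the 3555 genes compared, and 2 of the 10 passed the call (Ciita, the master regulator of the class II genes, and H2-Oa, which restrains peptide loading), and the median was -0.75 and -0.84. Ciita stood at 68.8 and 64.6 CPM against 182 and 187 CPM. The invariant chain Cd74 remained abundant, at 7454 and 8008 CPM against 10856 and 12821 CPM. Antigen receptor signalling genes gave a median of -0.16 in both libraries, near that of all genes. Of 16 compared, the phosphatase Ptpn22 was higher, and Cr2 and Cd72 were lower. Of the Toll-like receptor list, the partner genes Ly86, Cd180 and Unc93b1 could be compared and none was called, while no Tlr gene had enough UMIs. Tlr9 gave 1 UMI in each library's Mzb1-led cells, and Il10 gave 1 UMI in the female and 0 in the male Mzb1-led cells.

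**Figure D3:**
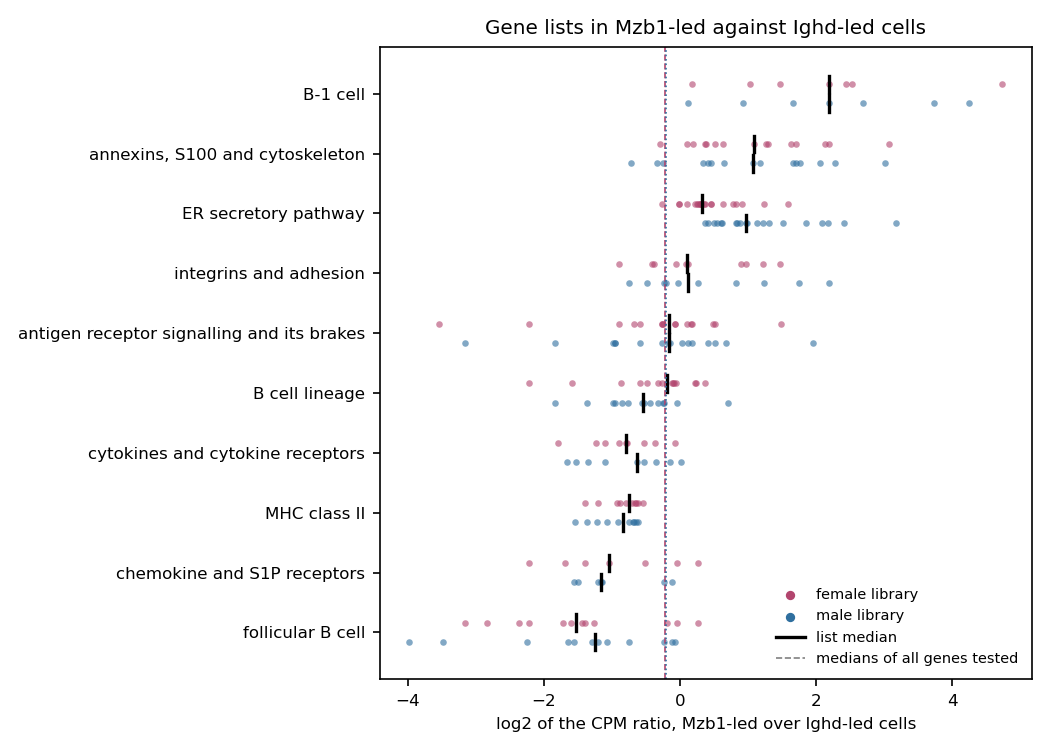
Log2 of the CPM ratio of Mzb1-led over Ighd-led cells for the compared genes of 10 gene lists, with 1 point per gene and library, black bars at the list medians and dashed lines at the medians of all genes. The compared genes of the B-1 and annexin lists lie mostly to the right and the follicular, chemokine receptor and MHC class II lists to the left in both libraries.

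Lists of other B cell states had few measurable genes. The 1 compared transitional gene, Cd24a, was not called, with levels of 247 and 338 CPM against 248 and 284 CPM. Rag1, Rag2, Vpreb1, Igll1 and Dntt, which mark B cell precursors, were at 0 in all Mzb1-led cells. No germinal centre gene had enough UMIs to be compared. Of the age-associated and memory list, Fcrl5 alone among 3 compared genes was higher, and Tbx21 gave 7 and 0 UMIs. Of 2 compared cell cycle genes neither was called, and Mki67 gave 7 UMIs in 3 female cells and 1 UMI in 1 male cell. Of the glucocorticoid response list, chosen because the adrenal cortex makes corticosterone, Tsc22d3 and Nr3c1 could be compared and neither was called. Tsc22d3 stood at 421 and 341 CPM against 569 and 574 CPM, ratios of 0.740 (0.645 to 0.848) and 0.594 (0.465 to 0.757).

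The rule chose Mzb1-led cells for few Ighd UMIs, so their heavy chain class is given as a description. Ighm had the most UMIs of all constant genes in 162 of 169 female (95.9%, 91.7 to 98.3%) and 61 of 63 male cells (96.8%, 89.0 to 99.6%). In Ighd-led cells, which the rule chose for Ighd, these were 210 of 296 and 118 of 157. Of the others, Igha led in 1 female and 2 male Mzb1-led cells, and Ighg2b and Ighg2c led in 1 female cell each. An Ighm UMI was also found in 430 of 864 female and 205 of 438 male T cells, which should lack it, and the part of free RNA and of doublets in these was not tested. Lambda constant genes led over Igkc in 36 of 169 female Mzb1-led cells (21.3%) and 31 of 296 Ighd-led cells (10.5%), a difference of 10.8 percentage points (4.02 to 18.2). The male shares were 9 of 63 (14.3%) and 11 of 157 (7.01%), a difference of 7.28 points (-1.05 to 18.4) whose interval spans 0. In T cells, which should lack light chains, lambda led in 43 of 864 female and 13 of 438 male cells. Iglc2 and Iglc3 are near-identical copies, and their separate counts are uncertain.

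Particular V segments are known from B-1a cells, whose receptors for phosphatidylcholine on aged cells pair Ighv11-2 with Igkv14-126 or Ighv12-3 with Igkv4-91. Reads of the 3′ end rarely reach a V segment, so the counts below are of the few cells in which one was seen. The final 120 coding bases of each segment are shown because these letters name the segments counted. Capitals run from the cysteine codon that closes framework 3 into the germline start of CDR3. The sequences are GENCODE vM21 transcripts on GRCm38, at chr12:114048241-114048360 (minus strand), chr12:114366521-114366640 (minus), chr6:67896523-67896642 (plus) and chr6:68768555-68768674 (minus), each within the V exon.
Ighv11-2: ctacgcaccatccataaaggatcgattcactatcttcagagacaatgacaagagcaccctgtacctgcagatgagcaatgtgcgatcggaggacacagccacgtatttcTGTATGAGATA
Ighv12-3: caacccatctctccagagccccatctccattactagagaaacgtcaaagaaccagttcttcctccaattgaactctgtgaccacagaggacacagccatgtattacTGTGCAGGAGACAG
Igkv14-126: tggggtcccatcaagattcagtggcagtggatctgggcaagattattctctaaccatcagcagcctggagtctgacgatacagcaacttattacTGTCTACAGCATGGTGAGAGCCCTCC
Igkv4-91: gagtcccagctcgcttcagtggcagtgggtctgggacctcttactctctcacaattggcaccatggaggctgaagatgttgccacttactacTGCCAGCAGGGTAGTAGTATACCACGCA

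A UMI of any of these 4 segments was seen in 19 of 169 female (11.2%, 6.91 to 17.0%) and 6 of 63 male Mzb1-led cells (9.52%, 3.58 to 19.6%). It was seen in 2 of 296 female (0.676%) and 0 of 157 male Ighd-led cells, for which 3 counts of the total set a limit of 1.91%. No UMI of them occurred in 864 female or 438 male T cells. Igkv14-126 alone gave 19 UMIs in 13 female and 7 UMIs in 4 male Mzb1-led cells, against 1 and 0 UMIs in Ighd-led cells. Ighv11-2 gave 5 and 2 UMIs, Igkv4-91 gave 6 and 2, and Ighv12-3 gave 2 and 0. Ighv11-2 and Igkv14-126 were seen together in 3 female and 2 male Mzb1-led cells and in no Ighd-led cell. Reads of V segments can be shared with close relatives, so the identity of single UMIs is uncertain, and Mzb1-led cells were deeper, which bears on any share of cells with a UMI.

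The Mzb1-led cells fell into 3 sets by what they held. Plasma cell genes (20 or more Jchain UMIs, or 2 or more UMIs of Sdc1 and Prdm1 together) marked 5 female and 3 male cells. Of the rest, 100 female and 25 male cells held a UMI of Zcwpw1 or Bhlhe41, and 64 and 35 held Mzb1 alone. The Zcwpw1 or Bhlhe41 set was 59.2% (51.4 to 66.7%) of the female and 39.7% (27.6 to 52.8%) of the male Mzb1-led cells.

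The 8 plasma-gene cells were deep. They held 11591 to 19927 UMIs in the female and 15812 to 22047 in the male library, and 172 to 1665 Jchain UMIs each. Jchain, the chain that joins IgM and IgA into polymers, stood at 3893 and 9250 CPM in Mzb1-led cells as a whole. It had 0 and 5 UMIs in Ighd-led cells. The female ratio was 992 with 3 UMIs put in place of 0, and the male ratio was 573 (245 to 1767). The plasma-gene cells held 3826 of 3848 female and 3005 of 3008 male Jchain UMIs. The female cells with Zcwpw1 or Bhlhe41 gave 21 Jchain UMIs, in 5 cells, against 0, with a lower bound of 5.76 on the ratio. The male ones gave 3 against 5, a ratio of 1.03 (0.161 to 5.31). Ighm was the leading heavy chain gene in 4 female and 1 male of the plasma-gene cells and Igha in the other 3. For Igkc, the kappa constant gene, these cells held 36499 of 45874 UMIs in females and 13789 of 16764 in males. Its ratio over Ighd-led cells was 4.09 (4.00 to 4.19) and 3.69 (3.57 to 3.82), and with plasma or plasmacytoid dendritic gene cells left out of both groups it was 0.906 and 0.790, so the direction turned. Of Ighm, these cells held 10403 of 13976 UMIs in females and 1594 of 2773 in males. Ighm stood at 4090 and 4437 CPM in the cells with Zcwpw1 or Bhlhe41 and at 3519 and 4247 CPM in those with Mzb1 alone. Ms4a1 was nearly lost in the plasma-gene cells, with 8 UMIs in the 5 female and 3 in the 3 male cells. Xbp1, the transcription factor of the secretory programme, had 67 of 107 UMIs there in females and 28 of 32 in males, and in the cells with Zcwpw1 or Bhlhe41 its ratios of 1.11 (0.650 to 1.88) and 0.861 (0.139 to 4.03) over Ighd-led cells spanned 1. The plasma cell list had 2 higher genes of 4 compared, Jchain and Xbp1, and the list of 20 secretory pathway genes had 2, Pdia4 and Creld2, with a median of 0.33 in the female and 0.97 in the male library. In the male library 5 cells held 93.8% of the Xbp1, 84.2% of the Creld2 and 67.4% of the Pdia4 UMIs of Mzb1-led cells.

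The remaining sets differed from each other. In cells with a Zcwpw1 or Bhlhe41 UMI, 51 genes were higher than in Ighd-led cells (1.75% of 2906 compared) and 113 lower (3.89%), and 31 and 93 of these were among the genes called over all Mzb1-led cells. In cells with Mzb1 alone, which were shallower in both libraries, 8 of 2471 genes were higher (0.324%) and 10 lower (0.405%). The 8 were Vim, S100a6, Plac8, Myadm, Wfdc21, Crip1, Ahnak and Pdlim1. Sox5 stood at 110 CPM in the female and 128 CPM in the male Zcwpw1 or Bhlhe41 set, and at 14.2 and 33.4 CPM in the Mzb1-alone set. The ratio between these sets was 7.73 (2.55 to 38.3) and 3.82 (1.16 to 19.9). Zbtb32 showed a ratio of 3.10 (1.35 to 8.78) and 4.49 (1.07 to 39.9), and Fcrl5 was at 107 and 150 CPM against 37.9 and 0 CPM.

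Vpreb3 went the other way. It stood at 31.8 and 44.5 CPM in the Zcwpw1 or Bhlhe41 set and at 407 and 446 CPM in the Mzb1-alone set, a ratio of 0.0781 (0.0465 to 0.126) and 0.0998 (0.0403 to 0.216). Ebf1 was at 662 and 706 CPM against 1449 and 1639 CPM. The Mzb1-alone levels of Vpreb3 thus lay near those of the Ighd-led cells, 361 and 491 CPM.

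Cell by cell, S100a6 and Vpreb3 rarely met, a pattern chosen after their values were seen. Cells with 3 or more S100a6 UMIs and no Vpreb3 were 79 of 100 female and 19 of 25 male cells of the Zcwpw1 or Bhlhe41 set. They were 25 of 64 and 9 of 35 of the Mzb1-alone set, and 15 of 296 and 8 of 157 Ighd-led cells. Cells with Vpreb3 and fewer than 3 S100a6 UMIs were 5 of 100 and 1 of 25, 23 of 64 and 13 of 35, and 119 of 296 and 69 of 157 in the same order. Cells with Vpreb3 and 3 or more S100a6 UMIs were 4 of 100 and 0 of 25, and 2 of 64 and 2 of 35. Among Ighd-led cells they were 4 of 296 and 0 of 157. The other cells had neither Vpreb3 nor 3 S100a6 UMIs, among them 158 of 296 and 80 of 157 Ighd-led cells. The V segments followed the same set: a UMI of the 4 segments was seen in 18 of 100 female and 6 of 25 male cells with Zcwpw1 or Bhlhe41, and in 1 of 64 and 0 of 35 with Mzb1 alone. The medians of 6954.5 and 7460 UMIs in the Zcwpw1 or Bhlhe41 set, against 2558.5 and 1936 in the Mzb1-alone set, move with these shares, and the part of depth was not tested.

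**Figure D4:**
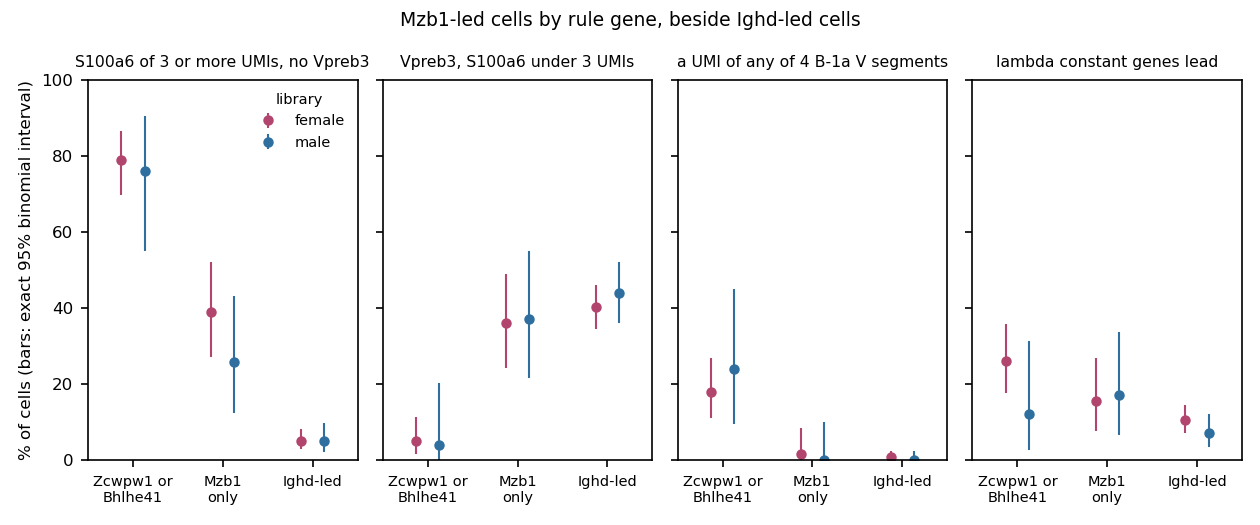
Percent of cells (exact binomial 95% intervals) with 3 or more S100a6 UMIs and no Vpreb3, with Vpreb3 and fewer than 3 S100a6 UMIs, with a UMI of any of 4 B-1a associated V segments, and with lambda constant genes leading, in Mzb1-led cells with Zcwpw1 or Bhlhe41, with Mzb1 alone, and in Ighd-led cells of each library. The Mzb1-alone set lies between the other sets in the first panel and beside the Ighd-led cells for Vpreb3 and for the V segments.

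The female and male Mzb1-led cells were compared as 2 libraries, since sex and library cannot be told apart. Of 5554 genes with at least 20 UMIs, 162 were higher in the female library (2.92%) and 104 in the male library (1.87%). These counts moved with the processing, to 15 and 20 at 1000 UMIs per cell and to 728 and 2 with the 5 cells of most UMIs of each gene left out. Xist, the RNA of the inactive X chromosome, and the Y-linked Ddx3y each occurred in the library of their sex and had 0 UMIs in the other. Several of the higher genes had ratios near 1 between the libraries: S100a6 had a female over male ratio of 1.03 (0.957 to 1.11), Plac8 1.07 (0.992 to 1.16), Vim 1.01 (0.885 to 1.15) and Zbtb32 1.13 (0.682 to 1.97). Others lay on the female side, with ratios of 1.57 (1.47 to 1.67) for Crip1 and 1.64 (1.32 to 2.03) for Ahnak, and the annexin list had a median log2 ratio of 0.47 against 0.02 for all genes. None of the compared annexin, follicular, MHC class II or chemokine receptor genes reached the call between the libraries. Calls in other lists included Il5ra of the B-1 list and Ebi3 of the marginal zone list, higher in the female library. Hspa5, Edem2 and Sdf2l1 of the secretory pathway list and Jchain and Tnfrsf17 of the plasma cell list were higher in the male library.

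Genes of cytotoxic and myeloid cells led the female side. Gzma, a granule protease of NK and T cells, stood at 327 CPM in female and 15.4 CPM in male Mzb1-led cells, a ratio of 21.3 (9.01 to 65.9). Ccl5, a chemokine of the same cells, had a ratio of 10.8 (6.48 to 19.4), Ly6c2 15.8 (7.60 to 39.7) and the lysozyme gene Lyz2 7.97 (4.59 to 15.1). Few cells carried these counts: 5 cells held 92.0% of the female Gzma UMIs, 90.7% of Ccl5, 87.5% of Ly6c2 and 88.9% of Lyz2. Of 8 NK cell genes, 7 were higher in the female library, and the summed level of the list was 1079 CPM in female and 80.0 CPM in male Mzb1-led cells, and 2929 and 775 CPM in Ighd-led cells. It ran from 0 to 38.7 UMIs per 1000 UMIs over female and from 0 to 0.898 over male Mzb1-led cells. The neutrophil genes S100a8, S100a9 and Retnlg were higher too, and 2 female cells reached 3 or more UMIs of that list, while Cxcr2 was at 0. Without cells that held 3 or more UMIs of neutrophil or NK cell genes, an alternative chosen after seeing the data, 99 genes were higher in the female and 125 in the male library, and the Ccl5 ratio was 0.780 (0.395 to 1.63). Without those cells the counts over Ighd-led cells were 56 higher and 113 lower.

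On the male side, Hspa5, the endoplasmic reticulum chaperone BiP, stood at 480 CPM against 214 CPM in the female Mzb1-led cells, a ratio of 0.447 (0.362 to 0.553). Without cells that held plasma cell or plasmacytoid dendritic cell genes the ratio was 1.0 (0.697 to 1.47). Rpl36a-ps1 had a ratio of 0.459 (0.353 to 0.599), and its ratio in Ighd-led cells was 0.401. It thus differed between the libraries in both B cell groups, and its reads can be shared with related ribosomal gene copies. Sfn, a 14-3-3 protein, had a ratio of 0.360 (0.216 to 0.600) in Mzb1-led and 1.09 in Ighd-led cells.

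**Figure D5:**
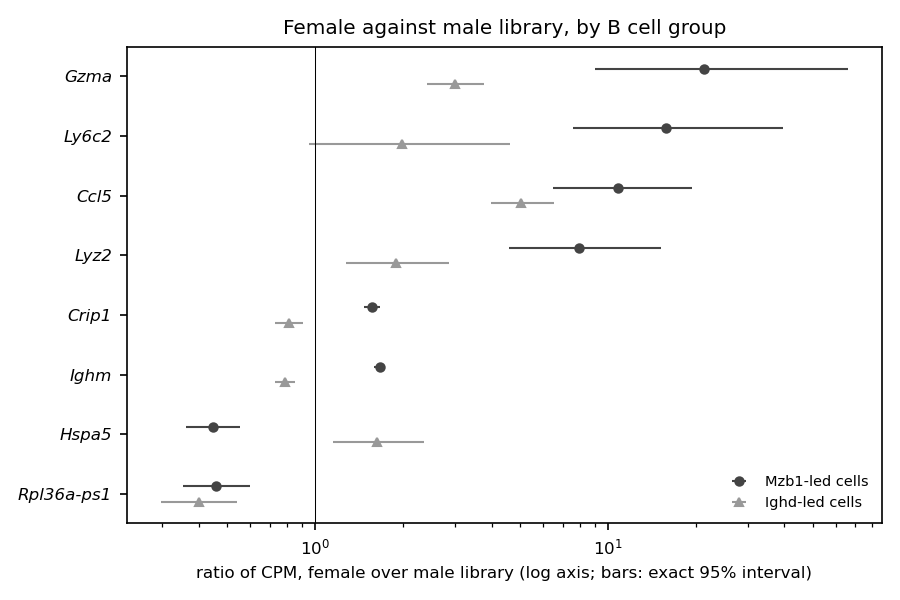
Ratio of CPM in the female over the male library (log axis, exact 95% intervals) for 8 genes in Mzb1-led cells (circles) and Ighd-led cells (triangles). Gzma, Ly6c2, Ccl5 and Lyz2 lie to the right of 1, Rpl36a-ps1 to the left in both groups, and Crip1, Ighm and Hspa5 lie on opposite sides in the 2 groups.

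Signal of other cell types is given as a description, since the gate capped part of it. At most 1 UMI of Cd3d, Cd3e and Cd3g and at most 2 of C1qa, C1qb and C1qc were allowed. These genes belong to the T cell and macrophage lists, so the low sums of both lists were partly set by the gate. The median cell held 0 UMIs of the T cell, NK cell, neutrophil, conventional dendritic, red blood cell and adrenal endocrine lists in both libraries. The 8 T cell genes summed to 44.5 CPM in female and 12.3 CPM in male Mzb1-led cells, with Cd4 at 0. Among the 121 lower genes were 3 of the NK cell list, Nkg7, Ccl5 and Gzma, and their part in the other calls was not tested beyond the count without such cells. The 10 macrophage genes summed to 625 and 375 CPM, and to 748 and 591 CPM in Ighd-led cells. Of the Mzb1-led cells, 45 female and 22 male ones held 3 or more UMIs of the macrophage list. Of the plasmacytoid dendritic cell list, which can share Mzb1, Siglech and Klk1 were at 0. That list summed to 451 and 532 CPM, against 501 and 500 CPM in Ighd-led cells. In the female library 61 Mzb1-led and 47 Ighd-led cells held 3 or more UMIs of it, and in the male library 24 and 18. Of its 8 genes only Bst2, Tcf4 and Irf8 had enough UMIs to be compared. Cox6a2 gave 1 UMI in female and 0 in male Mzb1-led cells. The adrenal list summed to 39.5 and 27.7 CPM, against 34 and 64.5 CPM, with Th, Dbh and Chga at 0. The steroid 21-hydroxylase gene Cyp21a1 gave the most UMIs of it in the female library, 19 female and 1 male, and Star, which moves cholesterol for steroid synthesis, gave 10 and 2. Of the cells marked as likely doublets at a fixed expected rate, 4 were female and 0 were male Mzb1-led cells.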

How the data were processed

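Adrenal CD45+ cells of female and male mice were profiled in 1 10x Genomics library each. The deposited values are raw UMI counts per gene and barcode (32285 genes), which the authors made with Cell Ranger 4.0.0 per the study's methods; the submitters' processing notes name mm10. UMIs are counted once per molecule, and free RNA was not removed. Barcodes were kept at 200 genes and 15% mitochondrial UMIs, since the ceiling of 1.2% in the study's methods kept 327 female and 359 male barcodes here, far fewer than the study states. The scale or gene set behind that ceiling is not clear, so values under it are given as a limit case only. Doublets were left in; Scrublet in scanpy 1.11.5 marked 1 and 8 barcodes by its automatic threshold, so it was treated as not having worked, and a fixed rate of 0.8% per 1000 barcodes was an alternative.

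Counts were summed per library and group and divided by the group's total (CPM). Intervals are exact 95% ones (Clopper-Pearson for shares, Newcombe for differences of shares, Poisson for levels, conditional binomial for ratios; scipy 1.17.1, Python 3.11.15). No p-value was computed, since each sex is 1 library, and scripts were tested on simulated data. Genes needed 20 UMIs in each library and a ratio of 2 or 0.5. Named genes were the 10 highest and 10 lowest by the bound nearer to 1 (5 and 5 between libraries), with UMIs in at least 10 cells of the higher group. List medians set a count of 0 to 3 UMIs. The Mzb1-led cells and the 29 gene lists were chosen with earlier results of these data known. Coordinates and V segment sequences come from GENCODE vM21. Alternatives changed the mitochondrial ceiling, doublets, gate, rule, depth, UMI minimum, totals and cells with most UMIs. Some genes of the lists and of the named genes are not reported here by name.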

Additional observations from a re-analysis of the deposited data

Results flagged for a closer look

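In 4 results the female and male libraries, or the Mzb1-led and Ighd-led cells, moved in opposite directions, and the difference was not tested in any of them, since each sex is 1 library. Lyz2 was at 1.69 times the level of Ighd-led cells in the female and at 0.400 times in the male Mzb1-led cells. Hspa5 had a female over male ratio of 0.447 in Mzb1-led and 1.63 in Ighd-led cells. Crip1 had ratios of 1.57 and 0.812, and Ighm of 1.66 and 0.786, in the same order. For Ighm, the plasma-gene cells held 10403 of 13976 female and 1594 of 2773 male UMIs, and the other Mzb1-led sets stood lower in the female than in the male library, at 4090 against 4437 CPM with Zcwpw1 or Bhlhe41 and 3519 against 4247 CPM with Mzb1 alone.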

How the results depend on the processing

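No paired analysis was possible because each sex is one library, and for the same reason no replicate could be left out. With a mitochondrial ceiling of 5%, the share of Mzb1-led cells in the gate was 28.0% (female) and 18.2% (male), the share of them with a Zcwpw1 or Bhlhe41 UMI 50.6% and 20.0%, and 31 genes were higher, 1 of them of the B-1 list. A ceiling of 1.2%, whose scale in the study's methods is in doubt, left so few cells that the female share was 75.0%, the female minus male difference 51.5 points and the Zcwpw1 or Bhlhe41 shares 33.3% and 0%. Then 0 genes were higher and 0 lower, with 0 in the annexin, follicular and B-1 lists, and 21 were higher in the female library. The female ratios of S100a6, Igkc, Plac8 and Vim were 0, the male Plac8 ratio 0.295 and the Hspa5 ratio 2.66. A lead of at least 2 UMIs gave shares of 26.4% and 17.7%, and 69.1% of female cells with Zcwpw1 or Bhlhe41. With Zcwpw1 and Bhlhe41 alone in the rule the shares were 17.1% and 6.15%, the Zcwpw1 or Bhlhe41 share was 100% by construction, 102 genes were higher in the female and 60 in the male library, the male Igkc ratio was 0.814 and the Hspa5 ratio 1.05.

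Without plasma and plasmacytoid dendritic gene cells 75 genes were lower, the Igkc ratios were 0.906 and 0.790 and the Hspa5 ratio 1.0. Thinning to 1000 UMIs gave shares of 25.9% and 18.3%, Zcwpw1 or Bhlhe41 shares of 38.1% and 25.0%, 5 genes higher and 6 lower, 15 higher in the female and 20 in the male library, and 3 annexin, 0 follicular and 0 B-1 list genes called. The female Igkc ratio was then 0.797 and the Zfp608 ratios 1.11 and 1.19. Thinning leaves fewer UMIs, so fewer genes could be compared. Without neutrophil and NK gene cells, chosen after seeing the data, 99 genes were higher in the female library and the Ccl5 ratio was 0.780. With no UMI minimum 93 genes were higher, and 193 in the male library. With at least 50 UMIs 21 were higher and 58 lower, 74 in the female and 29 in the male library, and 1 of the B-1 list. With the 5 cells of most UMIs of each gene left out 19 were higher, 728 in the female and 2 in the male library, and 1 of the B-1 list, the Igkc ratios were 0.882 and 0.645 and the Hspa5 ratio 1.71. Dropping 5 of 63 male cells takes a larger part of the male than of the female cells. Without immunoglobulin genes in the totals, 37.4% of calls were higher instead of 28.8%. Where no cause is given, the cause was not tested. The remaining 87 of 136 values that answer a comparison were kept, and of 607 for single genes 478 were kept, 111 moved and 18 changed direction, the latter all given above. Of the 16 B-1 list genes, 9 had too few UMIs to be compared, and the part of depth in this was not tested.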
